A study of Mus musculus with 4 samples.

Results

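Glucocorticoid receptor (GR) binding was examined at 9 genes of the p53 pathway, of growth arrest and of cell survival in mouse liver: Trp53inp1, Mdm2, Cdkn1a, Btg1, Btg2, Ddit4, Bcl2l1, Mcl1 and Bcl2l11. A ChIP-seq region was assigned to one of these genes when the nearest protein-coding transcription start site (TSS) to its centre, in GENCODE release M21 on the mm10 genome, was a TSS of that gene. The rule took 56 of the 31343 regions of the dexamethasone (Dex) set and 11 of the 5883 regions of the Vehicle set. Of 4 libraries, 2 came from ZT18 Dex livers, taken 1 h after an intraperitoneal injection of dexamethasone, a synthetic GR agonist, at 1 mg/kg, and 2 came from ZT18 Vehicle livers, taken 1 h after the cyclodextrin vehicle. ZT18 lies 18 h after lights on, in the dark phase of a 12 h light and 12 h dark cycle. Mice of both groups were males of 6 to 8 weeks, and both groups carried the label Hnf4a fl/fl Alb-Cre +/-, in which the albumin promoter would direct Cre, and with it deletion of Hnf4a, to hepatocytes. The study's methods describe C57BL/6 mice for this experiment, and which of these applies is not settled here. Nothing in the labels ties a library to its own mouse, so SEs and p-values concern the spread between these libraries. That spread was pooled over shared regions, so an SE is not the spread of its own region. The genes were selected on their known roles with the Dex against Vehicle fold changes and signal of these same libraries in view. Values of that contrast and of that signal are therefore a description.

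GR resides in the cytoplasm until it binds a glucocorticoid, then enters the nucleus and binds DNA, typically at a glucocorticoid response element (GRE) made of a pair of inverted arms, and the bound regions often lie far from promoters. The transcription factor p53 responds to DNA damage and other stresses by inducing genes that halt the cell cycle, among them Cdkn1a and Btg2, its own inhibitor Mdm2 and the cofactor gene Trp53inp1. Some genes of this group are also classical glucocorticoid targets: Ddit4 encodes REDD1, which restrains the growth kinase complex mTORC1, and Bcl2l11 encodes BIM, a death protein known for its part in glucocorticoid killing of lymphocytes.

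The sequences that carry the clearest GR motif matches were those about the 5 regions that held a relaxed GRE, defined as GNACA, any 3 bases and TGTNC, anywhere in the region. They are shown as 101 bases of the mm10 plus strand about the match, with the matched element of 15 bases in capitals. Only the Ddit4 element held all 12 letters of the strict form, AGAACA and TGTTCT with any 3 bases between. The Bcl2l11 element held 11 of those letters, and the elements of Bcl2l1, Cdkn1a and Trp53inp1 held 9 each. The windows lay at chr10:59974230-59974330 for Ddit4, chr2:128309773-128309873 for Bcl2l11, chr2:152820425-152820525 for Bcl2l1, chr17:29094656-29094756 for Cdkn1a and chr4:11123842-11123942 for Trp53inp1. These windows were chosen after the matches had been seen.
Ddit4 at -22.5 kb: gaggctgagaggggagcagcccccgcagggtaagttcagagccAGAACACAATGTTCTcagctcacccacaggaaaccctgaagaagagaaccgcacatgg
Bcl2l11 at 184 kb: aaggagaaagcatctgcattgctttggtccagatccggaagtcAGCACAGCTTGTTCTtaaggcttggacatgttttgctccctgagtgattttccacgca
Bcl2l1 at 9.89 kb: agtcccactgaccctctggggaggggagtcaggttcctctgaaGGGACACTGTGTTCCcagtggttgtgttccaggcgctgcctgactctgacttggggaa
Cdkn1a at 1.07 kb: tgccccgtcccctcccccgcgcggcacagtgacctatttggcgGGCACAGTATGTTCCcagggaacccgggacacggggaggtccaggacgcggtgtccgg
Trp53inp1 at -32.6 kb: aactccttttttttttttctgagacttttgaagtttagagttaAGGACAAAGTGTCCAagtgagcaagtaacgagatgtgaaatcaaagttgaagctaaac

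The central 200 bases of 6 other regions are shown: 3 strong regions shared with the Vehicle set, 2 over a promoter, and the single region of Mdm2. None of them held a relaxed GRE. Capitals mark every match to the searched motifs. In Trp53inp1 at -9.08 kb this was the GRE arm AGAACA. In the Trp53inp1 promoter the capitals are, in order, a GRE arm on the minus strand, a decamer of the p53 response element and the E-box CACGTG, the site of CLOCK and related factors. The Btg1 promoter held the FOXA motif TGTTTAC, and the Mdm2 region a p53 decamer. The Bcl2l1 region at 24.0 kb and the Ddit4 region at -18.2 kb held none of the motifs in this window. The windows lay at chr4:11147254-11147453, chr4:11156238-11156437, chr10:96616760-96616959, chr10:117717613-117717812, chr2:152806236-152806435 and chr10:59969915-59970114, in the order printed.
Trp53inp1 at -9.08 kb: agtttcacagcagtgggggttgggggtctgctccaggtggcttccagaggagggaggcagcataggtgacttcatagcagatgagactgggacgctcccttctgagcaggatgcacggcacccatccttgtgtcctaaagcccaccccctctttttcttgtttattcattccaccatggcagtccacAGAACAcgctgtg
Trp53inp1 promoter: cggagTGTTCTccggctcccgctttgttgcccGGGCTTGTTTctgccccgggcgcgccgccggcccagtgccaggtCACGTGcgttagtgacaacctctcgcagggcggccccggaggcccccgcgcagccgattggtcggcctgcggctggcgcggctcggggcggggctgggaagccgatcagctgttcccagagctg
Btg1 promoter: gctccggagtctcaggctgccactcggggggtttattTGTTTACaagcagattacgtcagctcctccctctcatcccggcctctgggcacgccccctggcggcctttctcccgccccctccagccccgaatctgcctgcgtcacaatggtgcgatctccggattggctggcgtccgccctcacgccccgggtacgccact
Mdm2 at -6.95 kb: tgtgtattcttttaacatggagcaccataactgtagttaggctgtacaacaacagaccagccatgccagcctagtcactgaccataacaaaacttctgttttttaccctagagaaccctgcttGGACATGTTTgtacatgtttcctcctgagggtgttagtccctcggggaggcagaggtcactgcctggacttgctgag
Bcl2l1 at 24.0 kb: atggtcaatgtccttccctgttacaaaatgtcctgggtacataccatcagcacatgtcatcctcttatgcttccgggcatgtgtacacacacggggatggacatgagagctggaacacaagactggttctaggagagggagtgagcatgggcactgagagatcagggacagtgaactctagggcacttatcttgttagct
Ddit4 at -18.2 kb: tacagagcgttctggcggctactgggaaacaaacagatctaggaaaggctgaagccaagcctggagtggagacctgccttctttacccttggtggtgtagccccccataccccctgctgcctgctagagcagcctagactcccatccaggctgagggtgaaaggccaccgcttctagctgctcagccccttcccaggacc

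The authors called regions once per treatment across ZT6 and ZT18 libraries, so presence in a set is not a property of ZT18 alone and has no replicate check. Total reads per library ran between 64169077 and 65097597 in Dex and between 29179899 and 91494606 in Vehicle, and 6.35% to 7.79% of Dex reads and 1.04% to 1.35% of Vehicle reads fell in the group's own regions. Signal is given as RPKM, reads per kb of region scaled to the read depth of the library, and a region's distance runs from the TSS of its gene, negative when upstream. A region present in both sets, with 1 partner in each, is called shared, and 5665 regions were shared. For these, Dex and Vehicle values were each taken over the region as called in that set. The median ratio of Dex to Vehicle width was 1.45. The signal in ZT18 Dex replicate 2 exceeded that in replicate 1 at 49 of the 56 regions of the 9 genes and at 75.0% of all 31343 Dex regions. Of marker genes, 10 of 10 for hepatocytes, 5 of 10 for endothelial and stellate cells, 4 of 6 for cholangiocytes, 0 of 10 for Kupffer cells and macrophages and 0 of 5 for lymphocytes had a Dex region, against 50.2% of all protein-coding genes. These are counts of bound genes in whole liver, and the share of each cell type in the libraries was not measured.

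All 9 genes had at least 1 Dex region, whereas 6 had a Vehicle region, against 50.2% and 18.3% of the 21910 protein-coding genes. Btg1 had 15 regions in the Dex set and 4 in the Vehicle set, Bcl2l11 had 12 and 1, Ddit4 had 8 and 2, Bcl2l1 had 6 and 1, Trp53inp1 had 5 and 2, and Cdkn1a had 4 and 1. Mcl1, Btg2 and Mdm2 had 3, 2 and 1 regions in the Dex set and 0 each in the Vehicle set. All 11 Vehicle regions were shared with a Dex region, which left 45 regions in the Dex set only. Btg1 and Bcl2l11, with the most regions, also had the widest territories (672 and 341 kb), the stretch of genome nearest to their TSS. Per 100 kb of territory, Ddit4 had 12.99 Dex regions, Bcl2l1 12.7, Mcl1 9.54, Cdkn1a 9.05 and Trp53inp1 8.68. Btg2 had 5.42, Bcl2l11 3.52, Btg1 2.23 and Mdm2 1.71. The genome as a whole had 1.18, a mean to which wide territories contribute most. The genes were chosen with the signal of these libraries known, so these counts and densities only describe the chosen genes.

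The regions lay mostly away from promoters, as the plot of region positions shows. A promoter, taken as 2000 bp before to 200 bp after a TSS, underlay 19.6% of the 56 regions, against 33.4% of all Dex regions. Of the 56 regions, 30 were centred between genes, 23 in introns and 3 in exons. A promoter of the gene itself was covered by 7 regions in 6 genes (2 at Bcl2l1, and 1 each at Trp53inp1, Ddit4, Mcl1, Bcl2l11 and Btg1). Another 4 lay over the promoter of another transcript only: the Trp53inp1 region at -32.6 kb (lincRNA Gm11827), the Cdkn1a regions at -17.5 and -11.9 kb (lincRNA Trp53cor1, a p53-induced transcript) and the Cdkn1a region at 1.07 kb (AC167363.2, an unclassified transcript). A TSS of some other annotated gene, coding or not, was nearer for 31 of the 56. When regions were assigned by the nearest TSS of any transcript, 25 Dex regions and 3 Vehicle regions stayed with the 9 genes. Distances beyond 100 kb occurred for 11 regions, all of Btg1 or Bcl2l11, and 18 lay within 10 kb.

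**Figure D1:**
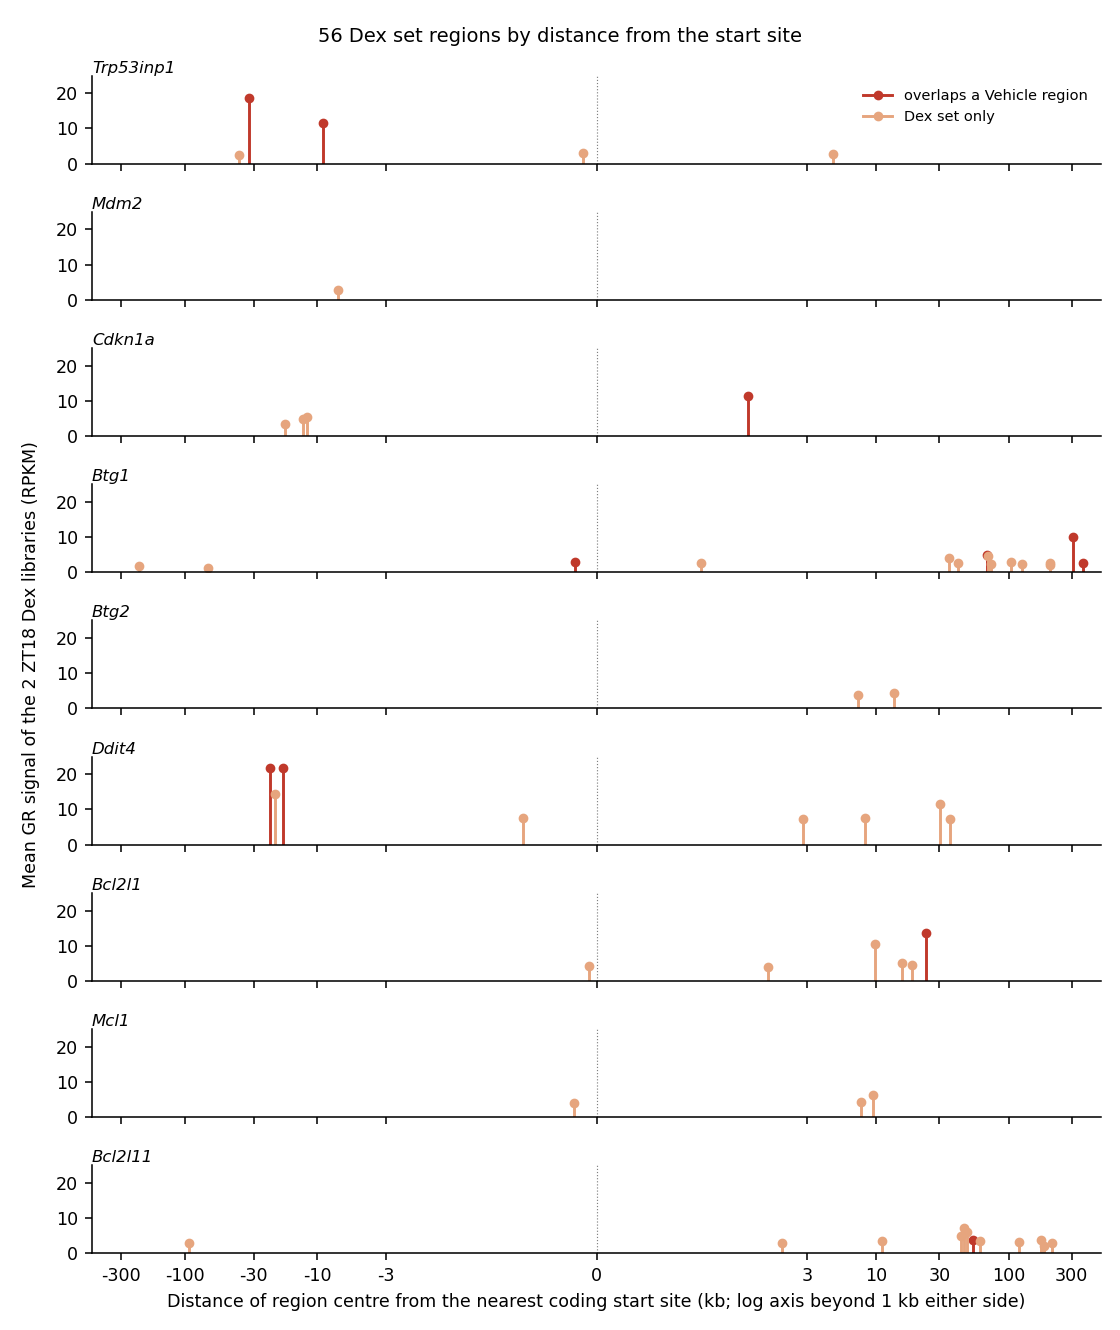
Each panel is 1 gene, with the distance of each Dex set region from the nearest coding TSS on the horizontal axis (kb, log scale beyond 1 kb on either side) and its mean signal in the 2 ZT18 Dex libraries on the vertical axis (RPKM). Dark red stems are the 11 regions that overlap a Vehicle region and pale stems the 45 found in the Dex set only; the tallest are the Ddit4 regions at -22.5 and -18.2 kb, with means of 21.7 and 21.8 RPKM.

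Of the p53-linked regulators, Trp53inp1, which encodes a p53-induced protein active in the nucleus and in autophagy, had the largest fold change of the 11 shared regions. Its region at -32.6 kb (chromosome 4, 11123458 to 11124123) had 16.6 and 20.7 RPKM in Dex replicates 1 and 2, against 2.77 and 3.06 RPKM in Vehicle replicates 1 and 2. Every Dex value was above every Vehicle value, and the fitted log2 fold change was 2.68 ± 0.48 (SE), or 6.42-fold, rank 1 of 5665 shared regions. The centre lay in an intron of the lincRNA Gm11827 and its relaxed GRE 102 bp from that centre, outside the central 200 bp. The region at -9.08 kb, the widest of the shared ones at 1510 bp, had 9.67 and 13.5 RPKM in Dex, against 4.13 and 3.73 RPKM in Vehicle. Here too the groups did not overlap, with a log2 fold change of 1.56 ± 0.44 (SE). The region over the Trp53inp1 promoter was weaker, with 2.40 and 3.40 RPKM in Dex, and was absent from the Vehicle set. The other Trp53inp1 regions, at -39.1 and 4.77 kb, had means of 2.37 and 2.85 RPKM in Dex.

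Mdm2, which encodes the ubiquitin ligase that degrades p53, had a single region, at -6.95 kb. Its signal was 2.05 and 3.40 RPKM in Dex (60 and 101 reads), below the median of all Dex regions, at rank 19974 of 31343. No Mdm2 region was in the Vehicle set, where signal was not measured outside the called regions, so the absence of a Vehicle region does not show absence of GR.

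Cdkn1a, which encodes the cyclin-dependent kinase inhibitor p21, had 1 region in both sets. Its centre lay 1.07 kb from the nearest coding TSS, in an intron of Cdkn1a. It was 1245 bp wide in the Dex set and 758 bp wide in the Vehicle set. It had 9.46 and 13.2 RPKM in Dex, against 7.51 and 11.9 RPKM in Vehicle. The groups overlapped, since Dex replicate 1 was below Vehicle replicate 2. The log2 fold change was 0.23 ± 0.43 (SE), and 0.94 without width correction. It was thus strongly bound in Vehicle too, second among the 11 Vehicle values to the Ddit4 region at -18.2 kb. The central 200 bp had a GC content of 73%, which was the highest value of the 56 regions and was shared with the Trp53inp1 promoter region. Upstream, 3 regions found in the Dex set only lay within 5.65 kb of each other in Trp53cor1. The strongest of these, at -11.9 kb, had 4.25 and 6.69 RPKM in Dex, and that at -17.5 kb had 3.38 and 3.49 RPKM.

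Btg1 and Btg2 encode related antiproliferative proteins that recruit the CCR4-NOT deadenylase to mRNA. The 15 Btg1 regions were spread between -219 and 364 kb, and 11 of them were below the median of all Dex regions in signal. The region at 307 kb, inside Gm33981, was the strongest, with 8.42 and 11.6 RPKM in Dex, against 6.76 and 9.23 RPKM in Vehicle. Its groups overlapped, at a log2 fold change of 0.33 ± 0.45 (SE). The region over the Btg1 promoter had 2.80 and 2.94 RPKM in Dex, against 2.58 and 2.57 RPKM in Vehicle. Both Dex values were above both Vehicle values there, but by little, with a log2 fold change of 0.15 ± 0.34 (SE). The shared regions at 68.7 and 364 kb had log2 fold changes of 0.42 ± 0.34 and 0.47 ± 0.32 (SE), and their groups overlapped. Without width correction these fold changes were 1.37 and 0.53. The 11 Btg1 regions in the Dex set only ran between 0.915 and 5.04 RPKM over both libraries, with the strongest at 69.6 kb (5.04 and 4.42 RPKM). Btg2 had regions at 7.35 and 13.6 kb, with means of 3.68 and 4.35 RPKM in Dex. The stronger had 4.26 and 4.45 RPKM, and neither was in the Vehicle set.

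Ddit4 had the highest signal of the group: all 8 of its regions were among the strongest 10% of Dex regions. At -22.5 kb (chromosome 10, 59974078 to 59974533), the region with the strict GRE had 18.9 and 24.5 RPKM in Dex, against 5.34 and 8.08 RPKM in Vehicle. The groups did not overlap, with a log2 fold change of 1.71 ± 0.46 (SE), and the element lay 25 bp from the region centre (-25). At -18.2 kb, 18.02 and 25.5 RPKM were measured in Dex, against 6.86 and 15.4 RPKM in Vehicle. Both Dex values were higher, but the Vehicle libraries differed by 1.17 on the log2 scale (replicate 2 over replicate 1). That was more than the fitted log2 fold change of 0.98 ± 0.44 (SE). Without width correction this fold change was 1.38. Between these regions, a region of 206 bp at -20.9 kb was in the Dex set only, with 12.4 and 16.6 RPKM, so that 3 of the strongest regions of the group lay within 4.29 kb. By mean Dex signal the 3 ranked 54, 56 and 215 of 31343. For those at -22.5 and -20.9 kb, the nearest TSS of any transcript belonged to Anapc16. The region over the Ddit4 promoter had 6.00 and 9.25 RPKM in Dex, and 4 regions downstream of the TSS, at 2.79 to 35.9 kb, ran between 6.69 and 11.9 RPKM over both Dex libraries.

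Bcl2l1 encodes the survival protein BCL-XL, and all 6 of its regions lay within the gene. The region at 24.0 kb, intronic (chromosome 2, 152806034 to 152806637), had 11.2 and 16.2 RPKM in Dex, against 2.98 and 3.70 RPKM in Vehicle. The groups were far apart, with a log2 fold change of 2.05 ± 0.44 (SE), or 4.15-fold, rank 10 of 5665. The intronic region at 9.89 kb, with a relaxed GRE 54 bp from its centre, was in the Dex set only, with 8.25 and 12.4 RPKM, rank 650 of 31343. The 2 regions over Bcl2l1 promoters were weaker. That at -0.052 kb, over promoters of 6 coding transcripts and 1 processed transcript, had 3.33 and 5.16 RPKM in Dex, and that at 1.53 kb, over the promoter of a processed transcript only, had 3.67 and 3.94 RPKM. Regions at 15.6 and 18.7 kb had means of 5.04 and 4.53 RPKM in Dex.

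Mcl1, which encodes a short-lived survival protein that hepatocytes depend on, had 3 regions within 10 kb, none in the Vehicle set. The promoter region had 3.69 and 4.51 RPKM in Dex, and the strongest, at 9.46 kb, had 5.28 and 7.41 RPKM. Bcl2l11 acts in the opposite direction, promoting cell death. Its 12 regions ran between 2.02 and 8.10 RPKM over both Dex libraries, with 5 of them within 17.6 kb, at 43.7 to 61.3 kb. The strongest, at 46.4 kb, had 6.19 and 8.10 RPKM and was in the Dex set only. The only region present in both sets, at 54.1 kb in an intron of Gm14005, had 4.38 and 3.41 RPKM in Dex, against 2.84 and 3.35 RPKM in Vehicle. Both Dex values were higher, one of them barely, at a log2 fold change of 0.35 ± 0.33 (SE). Without width correction this fold change was 0.91. The region over a Bcl2l11 promoter, at 1.95 kb and over processed transcripts only, had 2.13 and 3.52 RPKM in Dex. The region with the relaxed GRE at 184 kb was weak, with 2.07 and 2.21 RPKM and 50 and 54 reads.

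**Figure D2:**
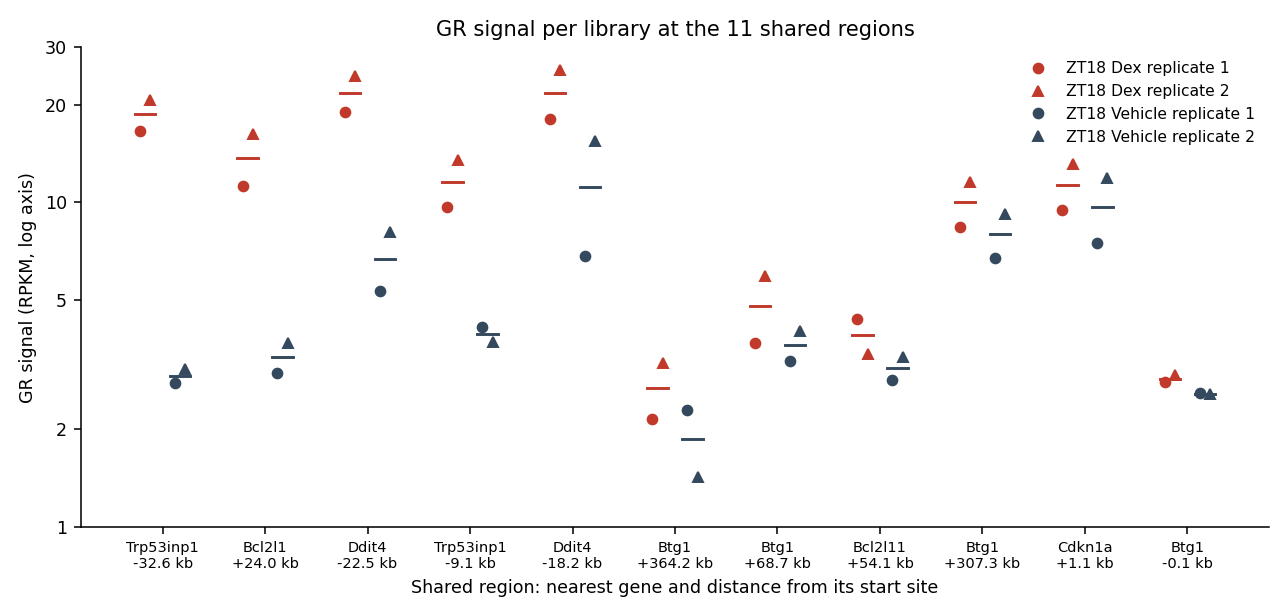
GR signal (RPKM, log axis) at the 11 shared regions, labelled by nearest gene and distance from its TSS. Red points are the 2 ZT18 Dex libraries and dark points the 2 ZT18 Vehicle libraries, with circles for replicate 1, triangles for replicate 2 and bars for the means; Dex and Vehicle lie far apart at Trp53inp1 (-32.6 kb: 16.6 and 20.7 against 2.77 and 3.06 RPKM) and overlap at Cdkn1a (1.07 kb: 9.46 and 13.2 against 7.51 and 11.9 RPKM).

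Across the 11 shared regions the median log2 fold change of Dex over Vehicle was 0.47, against 0.43 over all 5665. Both Dex libraries were above both Vehicle libraries at 7 of the 11, where 51.5% of all shared regions met this, and both were below at 0 of the 11, where 4.78% did. Of the 11, 4 were called higher by edgeR's quasi-likelihood test with Benjamini-Hochberg adjustment over all shared regions, where 11.8% were (666 regions). The 4 were the Trp53inp1 regions at -32.6 and -9.08 kb, Bcl2l1 at 24.0 kb and Ddit4 at -22.5 kb. By the nearest TSS of any transcript, their genes were Gm11827, Gm11830, Bcl2l1 and Anapc16, in that order. The 9 genes were chosen with this contrast known, so the counts are a description of the chosen regions. No test is given for them. No region of the 11 was called lower, nor was any of the 5665 (23 of them, or 0.406%, at an unadjusted p under 0.05 in edgeR, and 28 at an adjusted p under 0.05 in DESeq2). All 11 fold changes were above 0 in this fit, which scales by the library total, but only 5 of the 11 under TMM, DESeq2 or shared-region scaling. Those scalings placed the median of all shared regions at -0.04, -0.02 and -0.12 on the log2 scale, and the 4 calls held under each, at log2 fold changes of 0.97 to 2.21. Leaving out 1 library removed calls: 2 of the 11 regions were called without Dex replicate 1, 0 without Dex replicate 2, 0 without Vehicle replicate 1 and 2 without Vehicle replicate 2. The log2 fold changes of the 4 regions then ran between 2.52 and 2.83 at Trp53inp1 -32.6 kb, 1.76 and 2.29 at Bcl2l1, 1.43 and 2.02 at Ddit4 and 1.30 and 1.78 at Trp53inp1 -9.08 kb. In these fits 1 group has a single library, which is assumed to vary like the other group. The spike-in chromatin that was added to each immunoprecipitation has no scaling factor in the sources used here, so a change in all regions and a difference in library efficiency cannot be told apart.

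**Figure D3:**
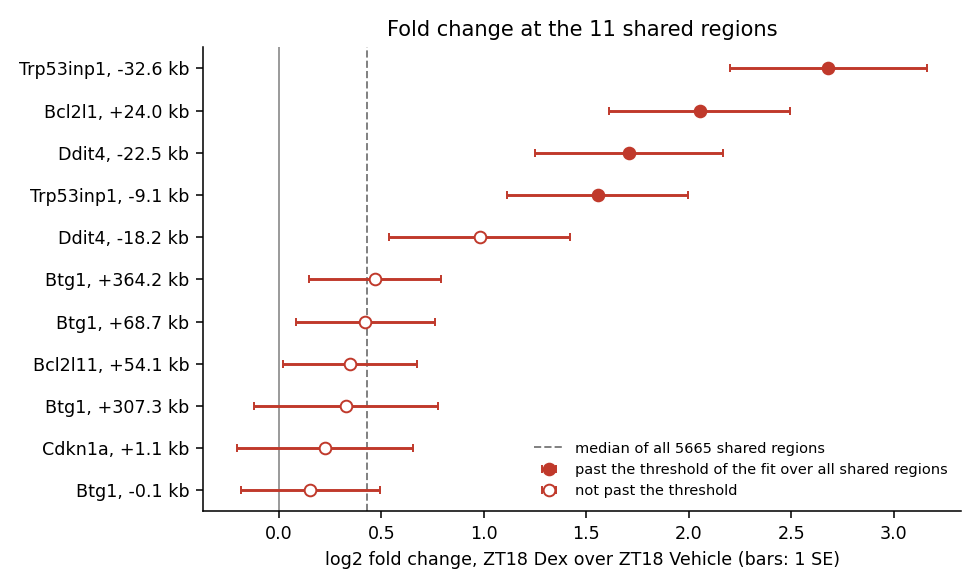
Log2 fold change of ZT18 Dex over ZT18 Vehicle (points, with bars of 1 SE) at the 11 shared regions from the fit over all 5665 shared regions, scaled by library total. Filled points passed the threshold of that fit and the dashed line is the median of all shared regions (0.43); the values run between 2.68 at Trp53inp1 and 0.15 at the Btg1 promoter, and the lowest 6 were below 0 under TMM, DESeq2 or shared-region scaling.

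The 45 regions in the Dex set only had a median signal of 3.78 RPKM over their means of the 2 Dex libraries, against 3.02 RPKM over all such regions, and 28 of them were above that value of 3.02 RPKM. The 11 shared regions had a median of 11.3 RPKM, against 4.29 RPKM over all shared regions. Signal differed between genes: the 6 Ddit4 regions of this kind had means of 7.40 to 14.5 RPKM, whereas the 11 of Btg1 had means of no more than 4.73 RPKM. Of the 56 regions, 5 were in the strongest 1% of Dex regions, 15 in the strongest 10% and 19 below the median. The genes were chosen with this signal known, so these values only describe the chosen regions.

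**Figure D4:**
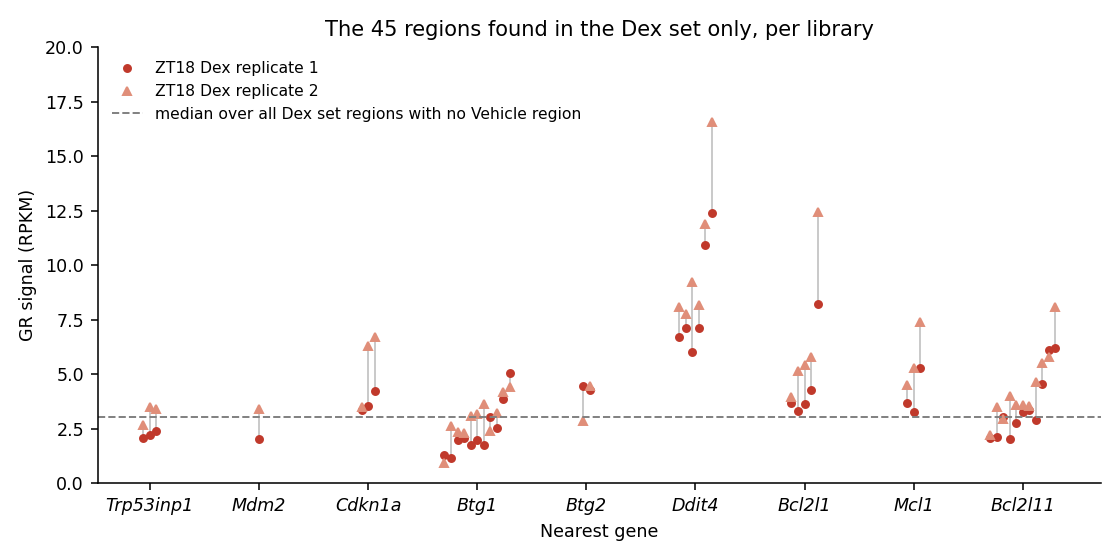
GR signal (RPKM) in ZT18 Dex replicate 1 (circles) and replicate 2 (triangles) at the 45 regions found in the Dex set only, by nearest gene, with a line joining the libraries of each region. The dashed line is the median over all such regions (3.02 RPKM); every Ddit4 region lies above it in both libraries, whereas the Btg1 regions fall on either side.

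Motif letters were searched on both strands in the central 200 bp of each region. The strict GRE was found in 1 of the 56 regions (Ddit4, -22.5 kb) and in 0.0575% of all Dex regions. The relaxed GRE, which includes the strict one, was found in 3 (Ddit4 at -22.5 kb, Bcl2l1 at 9.89 kb and Bcl2l11 at 184 kb), against 2.70% of all Dex regions, and in 5 when whole regions were searched, against 4.60%. Of the 4 called regions, the window of Ddit4 at -22.5 kb held a relaxed GRE, while Trp53inp1 at -32.6 kb held one outside the window and the other 2 held none. The single arm AGAACA, also a part of the strict GRE, was in 13 of the 56 regions and 19.2% of all.

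Motifs of other factors were counted in the same windows. AP-1 (TGANTCA) was in 6 of the 56 regions and 6.09% of all Dex regions, FOXA (TGTTTAC) in 5 and 4.32%, C/EBP (TTGCNNAA) in 4 and 13.1%, and the E-box CACGTG in 2 and 4.34%. HNF4A (CAAAGTCCA) was in 0 of the 56 and 1.399% of all, and the cyclic AMP element (TGACGTCA) in 0 and 0.626%. Of the FOXA matches, 4 were at Btg1, including its promoter. The full p53 response element, a pair of decamers, was in 0 of the 56 regions and 0.0607% of all, and a single decamer was in 5 (Trp53inp1 promoter, Mdm2, Cdkn1a at -11.9 kb, Bcl2l1 at 9.89 kb and Bcl2l11 at 184 kb), against 7.23% of all. In windows 2 kb from the centres of all Dex regions, AP-1 was in 6.00%, FOXA in 2.97%, C/EBP in 8.11%, the E-box in 2.60% and a single decamer in 7.03%. Over whole regions, AP-1 was in 14 of the 56 and 16.0% of all, FOXA in 10 and 10.1%, and C/EBP in 16 and 28.5%. The E-box was then in 3 and 11.8%, and a single decamer in 17 and 19.3%. The search allowed no mismatch, so near matches were not counted. In the Mdm2 window the decamer is followed directly by gtacatgttt, which misses the decamer pattern by a single base. The median GC content of the window was 51%, as over all Dex regions.

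Other genes of the same pathways were taken from a list of 60 (25 of the p53 network, 13 of growth arrest, 19 of survival and the BCL2 family and 3 stress inhibitors of mTORC1). Of the 60, 45 had a Dex region and 19 a Vehicle region, against 50.2% and 18.3% of all protein-coding genes. They held 25 shared regions, in 18 genes, whose median log2 fold change was 0.52, beside 0.43 over all shared regions. Of the 25, 3 were called higher and 0 lower. The share called higher was close to the 11.8% of all shared regions. No lower call was made among the 5665 (23 at an unadjusted p under 0.05 in edgeR, 28 called by DESeq2).

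Sesn1, a p53-induced sestrin that restrains mTORC1, had 4.69 and 7.88 RPKM in Dex at 6.45 kb, against 2.00 and 2.96 RPKM in Vehicle, and rose by a log2 fold change of 1.38 ± 0.37 (SE, edgeR adjusted p = 0.00928). Xiap, an inhibitor of caspases, had 6.54 and 9.77 RPKM at -47.4 kb in Dex, against 2.99 and 3.96 RPKM in Vehicle (1.26 ± 0.37, edgeR adjusted p = 0.0159). Btg3, a relative of Btg1 and Btg2, had 4.68 and 4.49 RPKM at -96.4 kb in Dex, against 2.13 and 1.87 RPKM in Vehicle (1.18 ± 0.33, edgeR adjusted p = 0.0119). In each, both Dex libraries were above both Vehicle libraries. The list was chosen with earlier results of these data known, so its counts and these p-values are a description. Of these calls, 1 remained with TMM scaling and 1 with DESeq2, and 0 remained with shared-region scaling, without Dex replicate 2 or without Vehicle replicate 1. Without Dex replicate 1, 2 remained (Sesn1 and Xiap), and without Vehicle replicate 2, 1 remained. The strongest shared regions of Tob2 (18.6 kb, 0.63), Tob1 (-39.5 kb, 0.79), Plk3 (-2.28 kb, 0.53) and Cdkn1c (146 kb, 0.19) did not pass the test, the values being log2 fold changes. Nor did the strongest shared region of Btg3 (-83.1 kb, 0.98), the Btg3 promoter region (0.86) or the Sesn1 promoter region (0.58). Tob1 and Tob2 are antiproliferative relatives of the Btg proteins, Plk3 is a stress-response kinase and Cdkn1c encodes p57, a relative of p21.

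The profile most like that of the Trp53inp1 region at -32.6 kb, by Euclidean distance of log2 RPKM over the 4 libraries, was that of a region 19.6 kb from Gadd45g (distance 0.456), a stress-response gene. It had 13.1 and 18.7 RPKM in Dex, against 2.87 and 3.65 RPKM in Vehicle. The next were regions nearest to Rbx1 (56.8 kb, distance 0.518), which encodes a ring subunit of cullin ubiquitin ligases, and Lurap1l (14.4 kb, distance 0.646).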

How the data were processed

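GR ChIP-seq of mouse liver was analysed in 2 ZT18 Dex and 2 ZT18 Vehicle libraries, grouped by their titles. Per the labels, 3 immunoprecipitations were pooled per sample. Alignment to mm10 with Bowtie 1.1.0, SAMtools 1.2 and MACS2 2.1.1 are named in the submitters' processing notes. The authors called regions across ZT6 and ZT18 separately for each treatment and removed blacklisted ones. The authors deposited whole read counts per region, and deposited RPKM values, from which library totals were recovered. The deposited signal column was a rescaled count within a library and was not compared. A control column held only 1 and was not used. Another 4 tables, of ZT6 libraries and with 20 value columns, are of other samples and were left out. Coordinates are as deposited.

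Regions matched one to one between sets (bedtools 2.31.1, at least 1 bp) with at least 10 reads in at least 2 libraries were fitted with edgeR 4.0.16 (quasi-likelihood test with the product of region width and library total as offset, threshold 0.05 after Benjamini-Hochberg adjustment). The common dispersion was 0.0529, with infinite prior degrees of freedom, and an SE therefore does not carry a region's own replicate spread. For 2 libraries in each group the smallest p of an exact permutation test is 0.33. On simulated data, the fit called 24 of 100 changes of 2-fold, 97 of 100 changes of 4-fold and 1 of 5465 unchanged regions. A region that was not called may therefore still differ. Counts of 27 to 1324 reads per library in the named genes' regions limit their precision. Alternatives were TMM, shared-region totals, DESeq2 1.42.0, other read minimums, overlap and width settings, a fit without each library in turn, a replicate block, and other annotation and motif windows. The genes, lists and tests were chosen with earlier results of these data known.

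Values per library are given for each gene's strongest shared region, every shared region past the threshold, regions over its own promoter and its strongest region in the Dex set only. Of the list of 60 genes, regions past the threshold and the other shared regions of their genes were named. Another 4 genes whose strongest shared region did not pass were named too. Sequences were read from the mm10 (GRCm38) RefSeq genome.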

Additional observations from a re-analysis of the deposited data

How the results depend on the processing

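Against 666 higher and 0 lower calls among all shared regions, TMM scaling gave 340 and 101, shared-region totals (width-corrected reads in shared regions) 243 and 121, DESeq2 265 and 28, and no width correction 3845 and 9. Among the 11 regions of the 9 genes these gave 4 calls each, except without width correction (8). Added there were Ddit4 at -18.2 kb, Btg1 at 68.7 kb, Bcl2l11 at 54.1 kb and Cdkn1a at 1.07 kb. The median log2 fold change of the 11 regions, 0.47, became -0.072 with TMM and -0.155 with shared-region totals. It was -0.0284 with DESeq2 and 1.37 without width correction. Calls in the list of 60 genes, 3 with the library total, numbered 1, 0, 1 and 18 in the same order. DESeq2 gave no adjusted p to 3075 of the 5665 regions, so it could not call those. With each library left out, calls over all shared regions ranged from 3 to 323 higher and 0 to 11 lower, over the 9 genes from 0 to 2, and over the list from 0 to 2, while the median of the 11 ran from 0.50 to 0.73. The read minimums of 0 and 50 and a 50% overlap changed no call of the named regions.

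With TMM, shared-region totals and DESeq2 the log2 fold changes below 0 were -0.072, -0.156 and -0.0284 at Btg1 364 kb, -0.0725, -0.155 and -0.058 at Btg1 68.7 kb, -0.106, -0.184 and -0.0883 at Bcl2l11, -0.13, -0.21 and -0.11 at Btg1 307 kb, -0.21, -0.29 and -0.20 at Cdkn1a, -0.33, -0.41 and -0.31 at the Btg1 promoter and -0.23, -0.30 and -0.22 at Cdkn1c. Plk3 had -0.0043 with shared-region totals. With a library left out, Cdkn1a ran from -0.0724 to 0.59 and Cdkn1c from -0.0891 to 0.47. None of these had been called, and the cause was not tested.

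Assigning regions by the nearest TSS of any transcript gave 25 Dex regions, 3 Vehicle regions and 1 call. Keeping regions above the median RPKM of their set gave 37 Dex and 7 Vehicle regions. Searching whole regions gave 5 relaxed GREs in place of 3.

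The replicate number as a block gave 2122 higher and 26 lower calls over all shared regions, 5 among the 11 (adding Ddit4 at -18.2 kb) and 10 in the list. Same-numbered libraries deviated together with r = 0.078 over 5665 regions, which are not independent. A shift common to all regions does not enter this r. In both groups signal tended to be higher in replicate 2. The median log2 ratio to replicate 1 was 0.27 over all Dex regions and 0.34 over all Vehicle regions. Whether the numbers pair the libraries was therefore not tested by this r.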
